A study of Mus musculus with 9 samples.

Results

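Granulosa cells divide while the ovarian follicle grows, and the genes examined here are 54 genes of DNA replication, mitosis and their transcriptional control. They were taken by symbol from a list of such genes by function, and each was found on 1 of the 25059 gene identifiers of the deposited tables. The members comprise 20 replication genes, 28 mitotic genes and 6 cell cycle transcription factors. All 54 reached the expression minimum of 1 FPKM (fragments per kilobase, relative to all mapped fragments) in at least 3 libraries and were tested. Earlier results of these data were known when the genes were chosen.

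RNA was measured in granulosa cells, the follicle's somatic cells next to the oocyte, from ovaries of Kunming mice at postnatal day 21. All animals had received 5 IU of PMSG, a gonadotropin that drives follicle growth, 48 h before the first time point. Cells taken with no hCG form the 0 h group, and cells taken 1 h and 6 h after 5 IU of hCG, which acts on the luteinizing hormone receptor and triggers ovulation, form the other groups, with 3 libraries each. The labels do not say whether replicates are different animals or pools, so each p-value measures the spread between libraries, and this spread may be purely technical. Libraries without hCG at 1 h or 6 h were not analysed here, so hCG and the passing of time cannot be told apart.

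In S phase, origins of replication licensed by CDC6, CDT1 and the MCM2 to MCM7 ring are fired by cyclin E and CDK2. Their DNA is unwound by a helicase made of CDC45, the MCM ring and the GINS complex. In mitosis, cyclin B and CDK1 drive entry, the Aurora and Polo kinases build the spindle, and the anaphase-promoting complex ends the division by destroying cyclins. E2F factors act mainly on replication genes, whereas a B-MYB, FOXM1 and MuvB complex acts on mitotic genes through a promoter element named CHR (cell cycle genes homology region). In the ovary, proliferating granulosa cells leave the cell cycle as the ovulatory signal turns them into luteal cells.

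Promoter windows of 300 bases, from 250 bases before to 50 bases after the annotated start, were taken from RefSeq (GRCm38.p6, the same assembly as mm10) and matched 44 of the 54 members. In these windows 3 kinds of motif were searched on both strands: an E2F motif (TTTCCCGC, TTTCGCGC, TTTGCCGC or TTTGGCGC), the CHR (TTTGAA or TTCGAA) and the NF-Y box (CCAAT), and matches on neighbouring bases may overlap. The windows of the 3 replication and the 3 mitotic genes with a window that fell most at 6 h are shown because they let the motif content of both groups be read beside their change. Those of Ccnb1 and Aurka, added after their values were seen, are shown because Ccnb1 did not pass the test beside its relative Ccnb2 and because Aurka rose. The window of E2f1 was also planned for display, holds none of these motifs and is not shown. Motif letters are in capitals, each window is written 5′ to 3′ on the gene's own strand, and all 8 genes lie on the minus strand.
Mcm3 promoter, chr1:20820263-20820562: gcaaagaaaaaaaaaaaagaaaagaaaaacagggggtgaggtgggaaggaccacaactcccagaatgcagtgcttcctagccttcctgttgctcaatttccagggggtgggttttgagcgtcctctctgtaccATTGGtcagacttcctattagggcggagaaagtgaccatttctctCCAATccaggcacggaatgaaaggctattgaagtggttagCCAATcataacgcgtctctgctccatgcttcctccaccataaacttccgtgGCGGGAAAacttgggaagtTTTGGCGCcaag
Mcm6 promoter, chr1:128359656-128359955: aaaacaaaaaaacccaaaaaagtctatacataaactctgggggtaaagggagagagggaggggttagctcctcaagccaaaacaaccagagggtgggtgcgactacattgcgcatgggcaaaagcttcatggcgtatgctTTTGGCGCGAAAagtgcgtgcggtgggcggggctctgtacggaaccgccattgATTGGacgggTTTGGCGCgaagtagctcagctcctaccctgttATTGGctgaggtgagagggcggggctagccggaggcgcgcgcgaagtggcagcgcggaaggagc
Mcm2 promoter, chr6:88898731-88899030: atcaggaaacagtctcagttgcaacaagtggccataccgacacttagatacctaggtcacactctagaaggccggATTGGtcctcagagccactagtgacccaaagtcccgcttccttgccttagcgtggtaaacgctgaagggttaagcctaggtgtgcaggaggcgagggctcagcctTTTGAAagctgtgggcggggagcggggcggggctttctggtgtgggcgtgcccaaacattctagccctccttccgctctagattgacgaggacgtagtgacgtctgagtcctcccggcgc
Ccnb2 promoter, chr9:70421505-70421804: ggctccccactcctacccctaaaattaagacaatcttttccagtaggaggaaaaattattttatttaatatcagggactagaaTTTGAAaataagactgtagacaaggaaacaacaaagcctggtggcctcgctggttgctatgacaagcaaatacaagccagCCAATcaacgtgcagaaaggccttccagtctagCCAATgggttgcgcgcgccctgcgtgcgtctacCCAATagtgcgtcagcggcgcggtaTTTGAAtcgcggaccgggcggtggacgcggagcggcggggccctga
Mki67 promoter, chr7:135716330-135716629: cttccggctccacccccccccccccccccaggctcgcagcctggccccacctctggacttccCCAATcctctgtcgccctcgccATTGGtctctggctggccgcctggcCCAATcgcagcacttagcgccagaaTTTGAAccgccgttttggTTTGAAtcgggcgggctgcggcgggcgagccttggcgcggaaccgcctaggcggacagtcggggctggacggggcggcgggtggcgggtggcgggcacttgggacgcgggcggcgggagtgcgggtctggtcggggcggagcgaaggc
Bub1 promoter, chr2:127831810-127832109: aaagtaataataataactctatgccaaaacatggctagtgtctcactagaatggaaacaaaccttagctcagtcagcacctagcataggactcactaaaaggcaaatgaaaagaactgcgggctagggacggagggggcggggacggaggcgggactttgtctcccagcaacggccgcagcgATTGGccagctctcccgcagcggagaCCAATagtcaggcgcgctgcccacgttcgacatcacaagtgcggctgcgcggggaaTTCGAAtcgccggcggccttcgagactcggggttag
Ccnb1 promoter, chr13:100786437-100786736: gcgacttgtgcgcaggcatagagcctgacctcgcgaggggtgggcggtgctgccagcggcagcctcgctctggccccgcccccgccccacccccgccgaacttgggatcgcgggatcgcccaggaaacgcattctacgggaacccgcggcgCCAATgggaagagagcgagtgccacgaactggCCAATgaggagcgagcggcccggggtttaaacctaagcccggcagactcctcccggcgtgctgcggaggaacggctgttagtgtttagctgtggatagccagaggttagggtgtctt
Aurka promoter, chr2:172370521-172370820: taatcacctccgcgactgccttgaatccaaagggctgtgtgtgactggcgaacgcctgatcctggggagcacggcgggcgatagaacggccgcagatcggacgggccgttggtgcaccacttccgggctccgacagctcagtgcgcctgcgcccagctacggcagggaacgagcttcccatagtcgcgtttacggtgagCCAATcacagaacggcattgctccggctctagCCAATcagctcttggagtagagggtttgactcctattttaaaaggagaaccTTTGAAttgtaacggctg

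The windows of replication and mitotic genes held these motifs in different shares. An E2F motif lay in 8 of 16 replication genes, in 1 of 23 mitotic genes (4.35%, Cdk1) and in 2.6% of all 27025 genes with a window. The CHR lay in 3 of 16 replication genes (18.8%), in 18 of 23 mitotic genes (78.3%) and in 21.7% of all genes. Within 50 bases of the start, a distance chosen after the positions were seen, it lay in 1 of 16 replication genes (6.25%), 17 of 23 mitotic genes (73.9%) and 6.12% of all genes. The NF-Y box was frequent in both groups, in 12 of 16 replication genes (75.0%) and 19 of 23 mitotic genes (82.6%), against 41.1% of all genes. These shares describe letters in a window and are not evidence of binding. The RefSeq windows of Cdc6, Mcm7 and E2f1, and 1 of the windows of E2f2, lie wholly inside the gene as GENCODE places it, downstream of its start there. Without these windows, an E2F motif lay in 6 of 14 replication genes (42.9%) and the CHR in 2 of 14 (14.3%), and the mitotic genes had no such window. Ccne2, Foxm1, Aurkb, Gins1, Cdc25c, Tpx2, Gins2, Kif20a, Mcm4 and Ccna2 had no window.

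**Figure D1:**
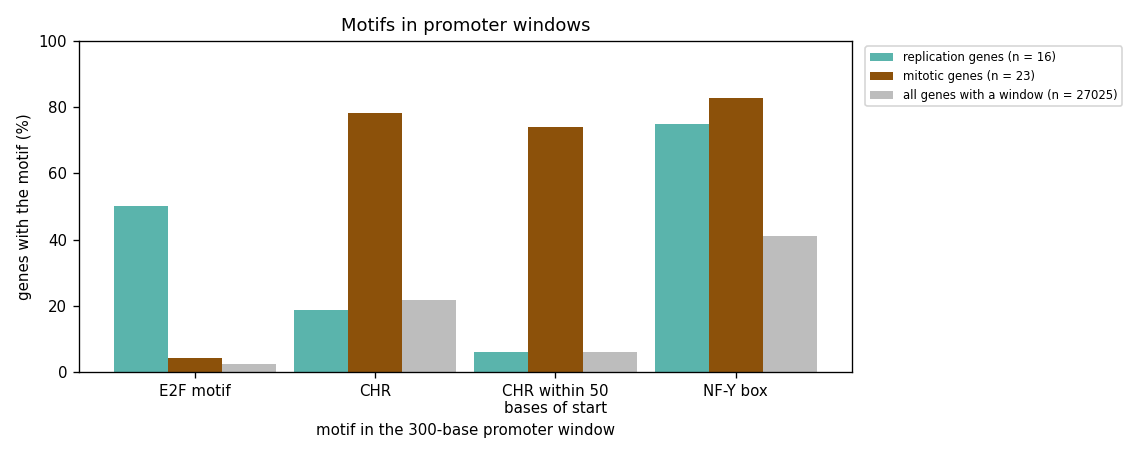
Share of genes (%, vertical axis) whose 300-base promoter window holds each motif, for 16 replication genes, 23 mitotic genes and all 27025 genes with a window. E2F motifs are found in 8 of 16 replication genes and 1 of 23 mitotic genes, whereas the CHR near the start stands at 6.25% and 73.9%.

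The motifs were also read in the members that fell at 6 h and in those that did not, as a description. The CHR lay in 8 of the 9 mitotic genes with a window that were lower at 6 h than at 0 h (88.9%) and in 10 of the 14 that were not (71.4%). In the windows shown, the CHR begins 5 bases after the start in Ccnb2, which fell, and 33 bases after it in Aurka, which rose. Ccnb1, which did not pass the test, has NF-Y boxes in its window and neither TTTGAA nor TTCGAA. Other forms of the CHR were not searched, so its window is not shown to lack the element. An E2F motif lay in 2 of the 4 replication genes with a window that fell, Mcm3 and Mcm6, and in 6 of the 12 that did not.

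At 1 h after hCG a single member, Pcna, passed the test, and its call was kept in only 8 of 17 alternative fits. A gene was called when its Benjamini-Hochberg adjusted p in limma, fitted over all 14535 tested genes, was below 0.05. By this rule 1 of 54 members was higher at 1 h than at 0 h (Pcna) and none lower, while 9.68% of all tested genes were called higher and 5.98% lower. Without the adjustment, 4 members had p below 0.05, and the median log2 change of the members was −0.09 against −0.01 for all tested genes. No mitotic gene and no transcription factor was called by limma at 1 h, and at an unadjusted p below 0.05 there were 0 of 28 and 1 of 6.

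The count of lower members at 1 h depended on how libraries were scaled. The sum of FPKM over all rows was 491920 to 495500 at 0 h and 527034 to 570986 at 1 h, and setting all libraries to the same sum shifted the median change of all genes to −0.14. Under that scaling 8 members were called lower at 1 h (Ccne2, Gins2, Cdc25c, Plk1, Birc5, Cdc20, Mki67 and E2f8) and none higher. The split over all genes went from 1407 higher and 869 lower to 1002 higher and 2634 lower. With quantile normalization it was 1142 higher and 1252 lower, with Mki67 as the only member called.

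Most members called at 6 h were lower. Of the 54, 21 were lower at 6 h than at 0 h (38.9%) and 2 were higher (3.7%), where 27.9% and 28.8% of all tested genes were called in these directions. Against 1 h, 15 were lower and 3 higher, where 26.9% of all tested genes were called lower and 26.7% higher. The median log2 change at 6 h against 0 h was −0.20, against 0.00 for all tested genes. Most of the declines were modest, since Ccnb2 and Mcm3 alone reached a log2 change of −1 or below, 2 of 54 where 6.26% of all tested genes did. The comparisons with 0 h and with 1 h share the 6 h libraries.

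**Figure D2:**
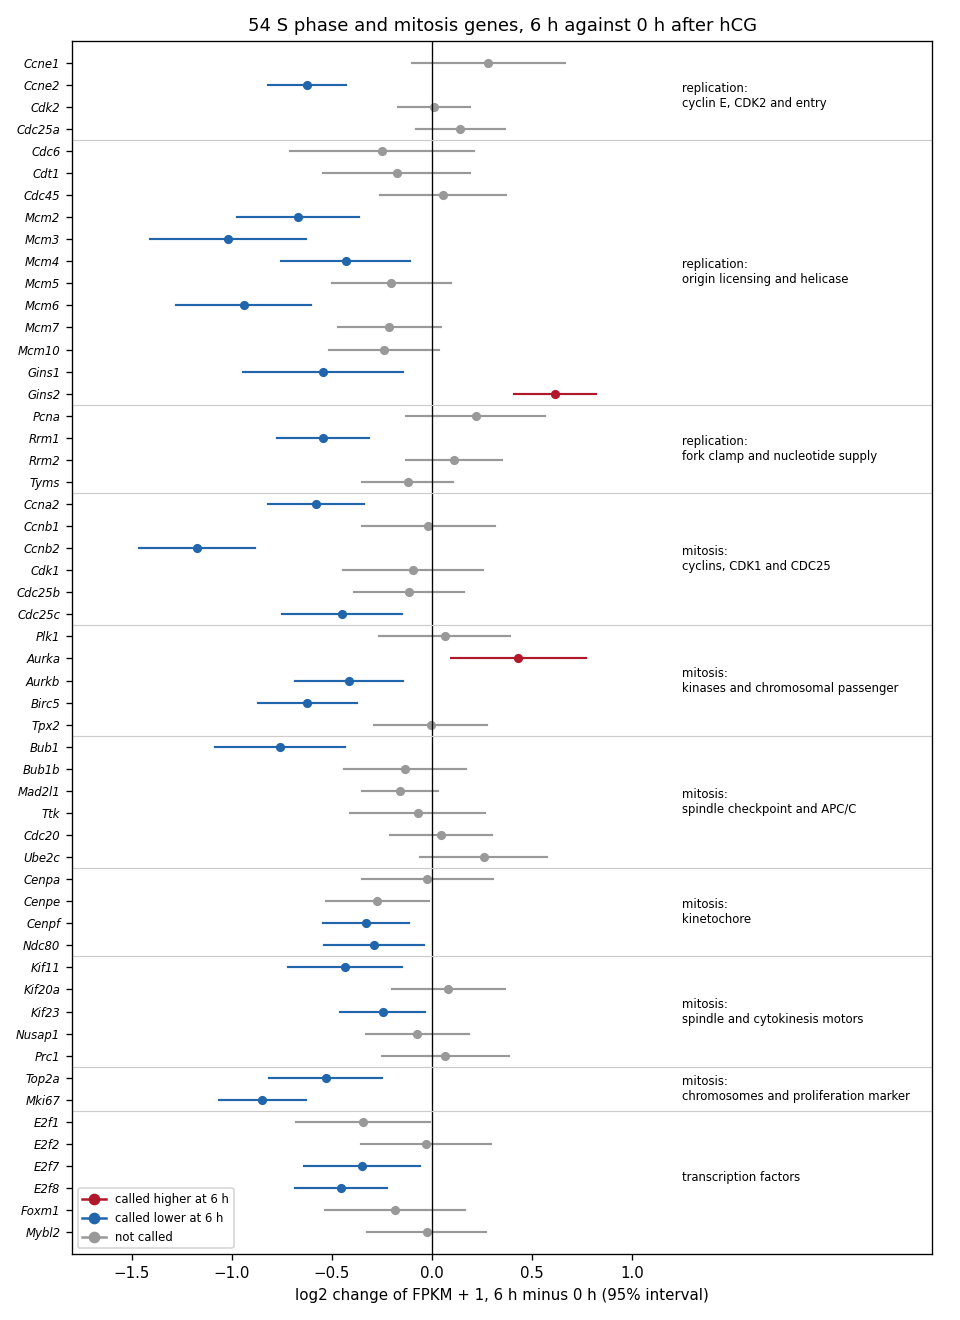
Change of each of the 54 genes at 6 h against 0 h as the log2 difference of FPKM + 1 (horizontal axis, points) with its 95% interval (bars), grouped by role and coloured by call. The calls comprise 21 genes to the left of 0 and 2 to the right, Gins2 and Aurka.

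Across the 3 times, 14 members were lower at 6 h than at both earlier times. Another 7 were lower at 6 h than at 0 h only, and 28 were called in no comparison. At 6 h against 0 h, 7 of 20 replication genes fell and 1 rose, with a median log2 change of −0.21. In the same comparison 12 of 28 mitotic genes fell and 1 rose, with a median of −0.15, and the difference between these groups was not tested. Of the 6 transcription factors 2 fell. Of all tested genes 27.9% were called lower, against 42.9% of the mitotic genes and 33.3% of the transcription factors, and 7 of 20 replication genes was also near the share of all genes. These counts depended on single libraries. Without replicate 1 or without replicate 2 at 6 h, lower calls numbered 15 in all, 5 in replication genes and 9 in mitotic genes. The largest drop of the total came without replicate 1 at 0 h, from 21 to 12. Lower calls then went from 7 to 5 in replication genes and from 12 to 6 in mitotic genes. Over all 14535 tested genes, lower calls went from 4051 to 3659 without this library. The share of members called lower was then no longer above that of all genes, in all or in either group. Replicate 1 was the highest of the 0 h libraries for 45 of the 54 members.

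Of 4 genes that start S phase, 1 fell at 6 h against 0 h. Ccne2, a cyclin E that activates CDK2, stood at 10.5, 10.5 and 10.7 FPKM at 0 h, at 8.06, 9.30 and 9.57 at 1 h and at 6.08, 6.46 and 6.93 at 6 h. Every 6 h library lay under every earlier library, and the gene fell by 0.62 on the log2 scale against 0 h (SE 0.09, adjusted p = 0.000216, limma). Ccne1, its sister cyclin, went from 3.33, 2.34 and 3.57 FPKM at 1 h to 4.12, 4.82 and 6.80 at 6 h, and was called higher against 1 h (log2 0.61, SE 0.17, adjusted p = 0.0136) but not against 0 h (log2 0.28, 95% interval −0.10 to 0.66). Cdk2, their kinase partner, was level at 21.6, 19.4 and 21.9 FPKM at 0 h, 20.8, 19.1 and 22.8 at 1 h and 20.5, 21.2 and 21.5 at 6 h. Its difference between 6 h and 0 h was 0.01, with a 95% interval of −0.17 to 0.19. Cdc25a, a phosphatase that activates CDK2, was not called either (log2 0.14, interval −0.08 to 0.37).

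Of the 6 subunits of the MCM ring, 4 fell. Mcm2, Mcm3, Mcm4 and Mcm6 were lower at 6 h than at 0 h, while Mcm5 and Mcm7 were not called, and the median over the 6 was −0.55. Mcm3 (chr1:20802968-20820312), whose promoter window holds 2 E2F motifs, stood at 44.5, 37.4 and 36.4 FPKM at 0 h, 36.6, 36.0 and 49.7 at 1 h and 16.2, 16.5 and 25.0 at 6 h. It kept 48.7% of its 0 h mean (log2 −1.02, SE 0.17, adjusted p = 0.000748). Mcm6 (chr1:128331590-128359664) gave 43.0, 38.2 and 36.3 FPKM at 0 h, 32.1, 36.5 and 40.9 at 1 h and 17.9, 16.9 and 25.9 at 6 h (log2 −0.94, SE 0.15, adjusted p = 0.000492). For both genes the 6 h libraries were below all others, and replicate 3 was the highest of them.

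Mcm2 went from 30.8, 26.6 and 26.8 FPKM at 0 h to 14.7, 16.6 and 21.0 at 6 h, with no overlap (log2 −0.67, adjusted p = 0.00215). Mcm4 went from 26.2, 22.5 and 20.9 to 14.5, 15.8 and 20.8 FPKM, where the third 6 h library reached nearly to the lowest 0 h library (log2 −0.43, adjusted p = 0.0272). The Mcm4 call was lost at an adjusted p of 0.0983 without 0 h replicate 1, 0.0525 without 0 h replicate 2, 0.0989 without 6 h replicate 1 and 0.0861 without 6 h replicate 2. Mcm7 had the highest level of the MCM subunits when its 7 rows were summed. Its most abundant row alone had a 0 h mean of 28.96 FPKM, below the only row of Mcm3 (39.45). The summed Mcm7 stood at 52.0, 41.0 and 41.9 FPKM at 0 h, 36.4, 45.7 and 47.8 at 1 h and 38.5, 37.9 and 38.9 at 6 h. Its 6 h libraries also lay below those of 0 h, but the difference of −0.21 (interval −0.47 to 0.04, adjusted p = 0.14) was not called in the fit used here. It was called lower with the sums made equal (adjusted p = 0.0473), with quantile normalization (0.027) and from its most abundant row alone (0.0335). Mcm5 had a difference of −0.20 (interval −0.50 to 0.09).

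The other licensing and helicase genes went in both directions. Gins2, a GINS subunit, was higher at 6 h, at 7.58, 7.62 and 8.16 FPKM against 5.26, 4.56 and 4.41 at 0 h and 3.96, 3.95 and 3.94 at 1 h. Every 6 h library lay above every earlier one (log2 0.62, SE 0.09, adjusted p = 0.000295 against 0 h, and log2 0.83, adjusted p = 5.07e-05 against 1 h). Gins1, another subunit of the same complex, was lower at 6 h, at 5.69, 5.65 and 9.34 FPKM against 12.4, 8.93 and 9.74 at 0 h, with overlapping libraries (log2 −0.54, adjusted p = 0.025). Its call was lost at an adjusted p of 0.0937 without 0 h replicate 1, 0.0885 without 6 h replicate 1 and 0.094 without 6 h replicate 2. The licensing factors Cdc6 (log2 −0.25, interval −0.71 to 0.21) and Cdt1 (−0.18, interval −0.54 to 0.19) were not called, nor were Cdc45 (0.05, interval −0.26 to 0.37) and Mcm10 (−0.24, interval −0.52 to 0.03). Without 6 h replicate 3 both Cdc6 (adjusted p = 0.0228) and Mcm10 (0.0211) were called lower.

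Among genes of the fork and of nucleotide supply, Pcna and Rrm1 moved at different times. Pcna, the sliding clamp of DNA polymerases, was the member called at 1 h, at 61.8, 61.7 and 90.1 FPKM against 52.9, 46.0 and 42.6 at 0 h, and it stood at 47.2, 56.3 and 61.9 at 6 h. All 1 h libraries lay above those of 0 h (log2 0.57, SE 0.16, adjusted p = 0.0359), with replicate 3 far above the other two. The call was lost in 9 of 17 alternatives, among them leaving out 0 h replicate 2 (adjusted p = 0.093), 0 h replicate 3 (0.116), 1 h replicate 3 (0.091) or 6 h replicate 2 (0.0547). Rrm1, the large subunit of ribonucleotide reductase, fell from 33.8, 29.3 and 27.8 FPKM at 0 h and 28.9, 28.02 and 33.7 at 1 h to 18.5, 20.7 and 22.2 at 6 h, with no overlap (log2 −0.55, SE 0.10, adjusted p = 0.00128). Rrm2, the small subunit of the same enzyme, had a difference of 0.11 (interval −0.13 to 0.35), and Tyms, thymidylate synthase, of −0.12 (interval −0.35 to 0.11).

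**Figure D3:**
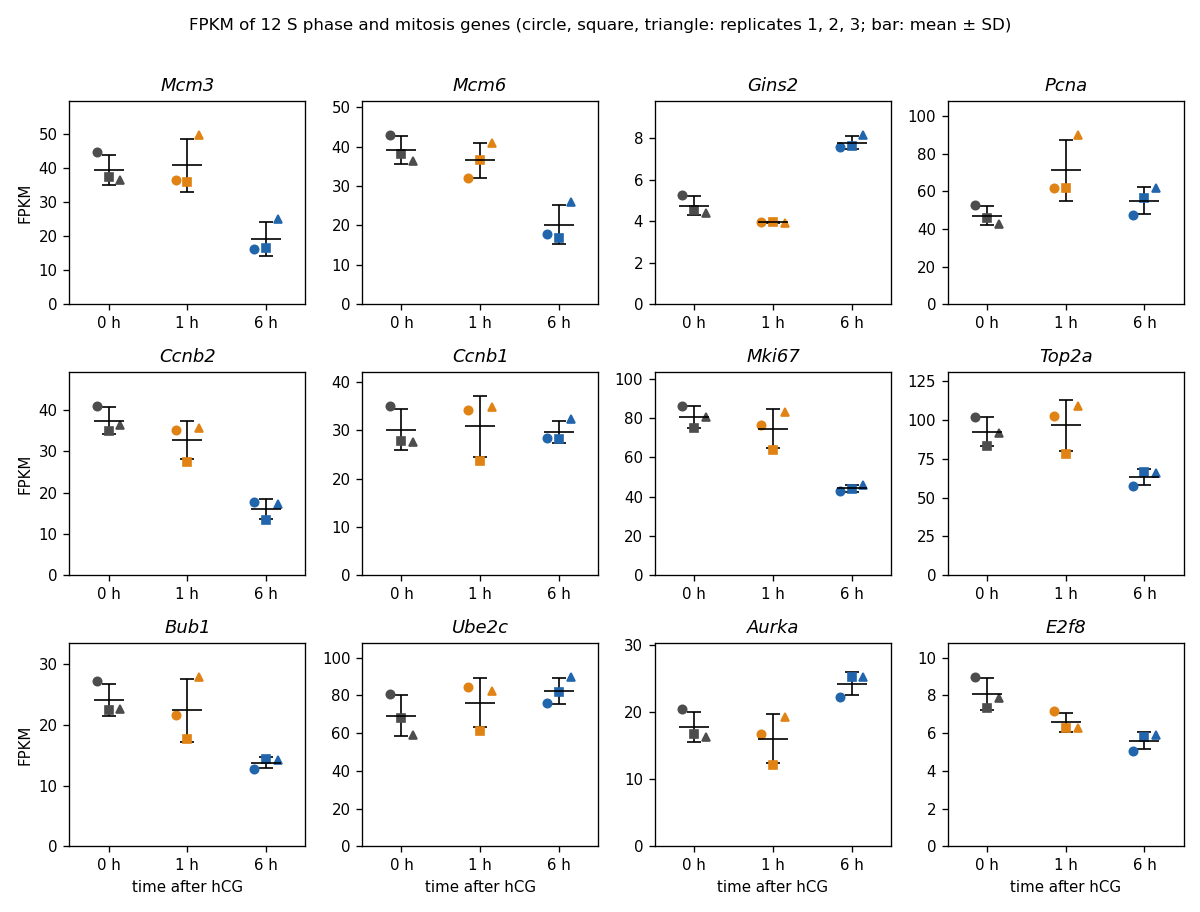
FPKM (vertical axis, from 0) of 12 genes in each library at 0, 1 and 6 h, with replicates 1, 2 and 3 as circle, square and triangle and the mean ± SD of 3 libraries as bars. Mcm3, Mcm6, Ccnb2, Mki67, Top2a, Bub1 and E2f8 lie lower at 6 h, Gins2 and Aurka higher, and the 6 h values of Ccnb1 and Ube2c overlap those of 0 h.

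Among the mitotic cyclins, Ccnb2 and Ccna2 fell at 6 h and Ccnb1 did not pass the test. Ccnb2 (chr9:70407692-70421547), a B-type cyclin, stood at 41.0, 34.9 and 36.5 FPKM at 0 h, 35.3, 27.4 and 35.7 at 1 h and 17.7, 13.4 and 17.2 at 6 h. It kept 43.0% of its 0 h mean, the lowest share of any member, and all 6 h libraries lay below the others (log2 −1.18, SE 0.13, adjusted p = 4.32e-05). Ccnb1, the other mitotic B-type cyclin measured, stood at 35.1, 27.9 and 27.6 FPKM at 0 h and at 28.4, 28.3 and 32.3 at 6 h, with overlapping libraries (log2 −0.02, interval −0.35 to 0.32). Ccna2, cyclin A2, which acts in S phase and G2, fell from 41.7, 33.3 and 34.6 FPKM at 0 h and 33.7, 29.2 and 37.8 at 1 h to 23.5, 23.3 and 25.2 at 6 h without overlap (log2 −0.58, SE 0.11, adjusted p = 0.00127).

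Cdk1, the kinase that these cyclins activate, stood at 55.5, 40.1 and 51.2 FPKM at 0 h, 53.5, 41.2 and 60.9 at 1 h and 39.9, 47.7 and 49.0 at 6 h, and was not called (log2 −0.09, interval −0.45 to 0.26). Of the CDC25 phosphatases that activate it, Cdc25c was called lower (log2 −0.45, adjusted p = 0.0166), at 9.55, 7.50 and 8.47 FPKM at 0 h and 6.36, 5.28 and 6.21 at 6 h. That call was lost at an adjusted p of 0.064 without 0 h replicate 1 and 0.0645 without 6 h replicate 2. Cdc25b was not called (−0.11, interval −0.39 to 0.16).

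The Aurora kinases moved in opposite directions. Aurka, which acts at spindle poles, was higher at 6 h, at 22.3, 25.2 and 25.2 FPKM against 20.4, 16.7 and 16.2 at 0 h and 16.8, 12.1 and 19.3 at 1 h. All 6 h libraries lay above the earlier ones (log2 0.43, SE 0.15, adjusted p = 0.0336 against 0 h, and log2 0.59, adjusted p = 0.0088 against 1 h). Against 0 h the call was lost at an adjusted p of 0.0938 without 0 h replicate 2, 0.102 without 0 h replicate 3, 0.0932 without 6 h replicate 2 and 0.0868 without 6 h replicate 3, with no filter on low values (0.0555) and with quantile normalization (0.0643). The call against 1 h was kept in all 17 alternatives.

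Aurkb, the kinase of the chromosomal passenger complex, fell from 20.9, 17.3 and 17.4 FPKM to 12.0, 14.8 and 14.2 (log2 −0.42, adjusted p = 0.0141). Its call was lost at an adjusted p of 0.0564 without 0 h replicate 1 and 0.0546 without 6 h replicate 1 and from the most abundant row alone (0.104). Birc5, survivin, another subunit of that complex, fell from 42.3, 36.0 and 40.2 FPKM at 0 h and 37.1, 30.0 and 38.0 at 1 h to 22.3, 26.3 and 27.4 at 6 h without overlap (log2 −0.62, SE 0.11, adjusted p = 0.000975). Both members of this group that were not called had overlapping libraries. Plk1, the Polo kinase, stood at 30.2, 23.2 and 21.6 FPKM at 0 h, 22.1, 17.0 and 23.1 at 1 h and 23.6, 25.0 and 29.3 at 6 h, a log2 difference of 0.06 between 6 h and 0 h (interval −0.27 to 0.39). Tpx2, which activates Aurora A on the spindle, stood at 32.2, 26.3 and 27.6 FPKM at 0 h, 28.2, 20.8 and 29.1 at 1 h and 26.6, 30.2 and 28.7 at 6 h, a log2 difference of −0.01 (interval −0.29 to 0.28).

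Of the 6 genes of the spindle checkpoint and the anaphase-promoting complex, 1 fell. Bub1, a checkpoint kinase, stood at 27.2, 22.4 and 22.7 FPKM at 0 h, 21.7, 17.7 and 27.9 at 1 h and 12.8, 14.3 and 14.2 at 6 h. Its 6 h libraries were below all others and its promoter window carries a CHR 15 bases after the start (log2 −0.76, SE 0.14, adjusted p = 0.00145). Ube2c, the ubiquitin-conjugating enzyme of the complex and the second most abundant member, stood at 80.7, 68.0 and 59.2 FPKM at 0 h, 84.7, 61.3 and 82.5 at 1 h and 76.1, 81.9 and 89.8 at 6 h, with overlapping libraries (log2 0.26, interval −0.06 to 0.57). Cdc20, an activator of the complex, was at 0.04 (interval −0.21 to 0.30), and the checkpoint genes Bub1b, Mad2l1 and Ttk lay between −0.16 and −0.07. Mad2l1 was called lower with the sums made equal (adjusted p = 0.0169) and with quantile normalization (0.0148).

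At the kinetochore, where chromosomes attach to the spindle, 2 of 4 genes fell at 6 h against 0 h. Cenpf, a large kinetochore protein, stood at 21.5, 18.7 and 19.5 FPKM at 0 h, 22.8, 18.7 and 22.3 at 1 h and 15.3, 17.1 and 14.5 at 6 h (log2 −0.33, SE 0.10, adjusted p = 0.0151), and the call was lost at an adjusted p of 0.0587 without 0 h replicate 1 and 0.0535 without 6 h replicate 3. Ndc80, which binds microtubules, went from 13.3, 12.0 and 11.2 FPKM at 0 h and 11.8, 9.49 and 12.6 at 1 h to 9.20, 10.5 and 9.57 at 6 h (log2 −0.29, adjusted p = 0.0479). That call was lost in 10 of 17 alternatives, among them leaving out 0 h replicate 1 (adjusted p = 0.154), 0 h replicate 2 (0.0923), 1 h replicate 1 (0.0608) or any of 6 h replicates 1 (0.13), 2 (0.0535) and 3 (0.104). Cenpe, a kinetochore motor, stood at 21.0, 19.6 and 20.1 FPKM at 0 h, 23.9, 18.4 and 26.0 at 1 h and 15.6, 16.4 and 17.7 at 6 h. It was called lower against 1 h (log2 −0.42, adjusted p = 0.0114) and not against 0 h (log2 −0.27, interval −0.53 to −0.02, adjusted p = 0.0657), where 5 of 17 alternatives made the call. These were the sums made equal (adjusted p = 0.00904), quantile normalization (0.0145), only the times compared (0.0138) and leaving out 1 h replicate 2 (0.0102) or 1 h replicate 3 (0.0427). Without 1 h replicate 2, Cenpe was also called higher at 1 h than at 0 h (adjusted p = 0.0371). Cenpa, the centromeric histone variant, was at −0.02 (interval −0.35 to 0.30).

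Of 5 motors and spindle proteins, 2 fell. Kif11, the kinesin that separates spindle poles, went from 21.2, 16.5 and 18.7 FPKM at 0 h and 21.1, 15.4 and 21.0 at 1 h to 13.0, 13.8 and 13.9 at 6 h without overlap (log2 −0.44, SE 0.13, adjusted p = 0.0145), and the call was lost at an adjusted p of 0.0574 without 0 h replicate 1. Kif23, a kinesin of cytokinesis, went from 19.4, 18.4 and 17.4 FPKM at 0 h and 19.0, 15.2 and 17.9 at 1 h to 14.2, 15.4 and 16.5 at 6 h (log2 −0.25, adjusted p = 0.0485). The Kif23 call was lost in 10 of 17 alternatives, among them leaving out 0 h replicate 1 (adjusted p = 0.142), 0 h replicate 2 (0.101), 0 h replicate 3 (0.055), 1 h replicate 3 (0.0581), 6 h replicate 1 (0.153) or 6 h replicate 2 (0.0982). Prc1, which bundles microtubules in the spindle midzone, stood at 46.7, 35.2 and 37.7 FPKM at 0 h, 43.0, 31.3 and 44.9 at 1 h and 38.4, 42.3 and 44.1 at 6 h and was not called (log2 0.07, interval −0.25 to 0.39). Kif20a (0.08, interval −0.20 to 0.37) and Nusap1 (−0.07, interval −0.33 to 0.18) were not called either.

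Top2a and Mki67, among the most abundant members, both fell. Top2a, the topoisomerase that untangles chromosomes, stood at 102, 83.5 and 91.5 FPKM at 0 h, 103, 77.9 and 109 at 1 h and 57.6, 66.7 and 66.1 at 6 h (log2 −0.53, SE 0.13, adjusted p = 0.00514). Mki67, which encodes the Ki-67 antigen used as a marker of proliferation, stood at 86.1, 74.9 and 80.7 FPKM at 0 h, 76.5, 63.7 and 83.3 at 1 h and 42.6, 44.1 and 46.1 at 6 h. It kept 54.9% of its 0 h mean (log2 −0.85, SE 0.10, adjusted p = 5.54e-05). In both genes every 6 h library lay below every earlier library, and both calls were kept in all 17 alternatives.

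Of the 6 transcription factors of these programmes, 2 fell at 6 h. E2f8, an atypical E2F that represses, stood at 8.97, 7.30 and 7.88 FPKM at 0 h, 7.14, 6.29 and 6.26 at 1 h and 5.06, 5.81 and 5.91 at 6 h, falling without overlap (log2 −0.46, SE 0.10, adjusted p = 0.00396). E2f7, the other atypical repressor, went from 9.11, 7.88 and 8.51 FPKM at 0 h and 8.12, 6.41 and 8.14 at 1 h to 6.59, 5.36 and 7.54 at 6 h (log2 −0.35, adjusted p = 0.0418). The E2f7 call was lost in 9 of 17 alternatives, among them leaving out 0 h replicate 1 (adjusted p = 0.121), 0 h replicate 2 (0.053), 0 h replicate 3 (0.0869), 1 h replicate 1 (0.0507), 6 h replicate 1 (0.0742) or 6 h replicate 2 (0.155). Foxm1, an activator of mitotic genes and the most abundant of the group, stood at 19.2, 17.0 and 16.5 FPKM at 0 h, 15.2, 13.4 and 19.8 at 1 h and 12.2, 17.3 and 16.9 at 6 h, with overlap (log2 −0.19, interval −0.54 to 0.16). The activators E2f1 (−0.34, interval −0.68 to −0.01, adjusted p = 0.074) and E2f2 (−0.03, interval −0.35 to 0.29) and Mybl2, which encodes B-MYB (−0.03, interval −0.32 to 0.27), were not called. E2f1 was called lower without 6 h replicate 3 (adjusted p = 0.00496) and with the sums made equal (0.0347).

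Within a time, many members shared the same order of libraries. At 1 h, replicate 2 was the lowest library for all 28 mitotic genes and for 11 of 20 replication genes. At 6 h, replicate 3 was the highest for 19 of 20 replication genes and for 15 of 28 mitotic genes, and replicate 1 the lowest for 41 of 54 members. The mean log2 level of replication genes, relative to the 0 h mean, was −0.39, −0.28 and −0.01 in the 6 h libraries, so the third reached into the 0 h range of −0.06 to 0.10. For mitotic genes the 6 h libraries stood at −0.32, −0.23 and −0.17, all below the 0 h range of −0.10 to 0.14. The 1 h mean of mitotic genes was 0.01 in replicate 1, −0.33 in replicate 2 and 0.10 in replicate 3.

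**Figure D4:**
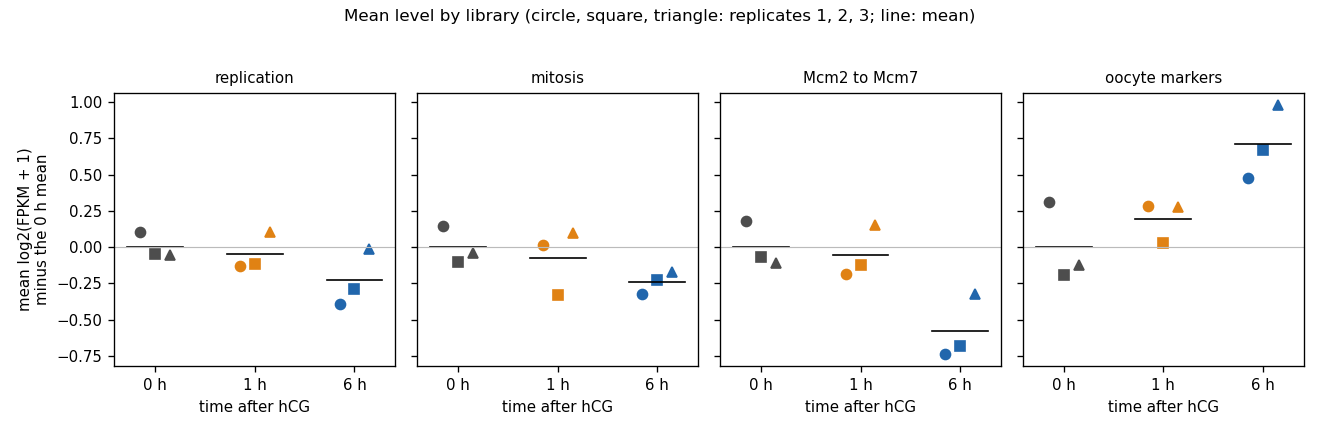
Mean log2(FPKM + 1) of 4 gene groups in each library, relative to the mean of the 0 h libraries (vertical axis), with replicates 1, 2 and 3 as circle, square and triangle and the mean of 3 libraries as a line. Mcm2 to Mcm7 stand between −0.74 and −0.32 at 6 h, mitotic genes between −0.32 and −0.17, and oocyte markers between 0.48 and 0.98.

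Markers of granulosa cells and of other cells were read beside these changes. At 6 h against 0 h, 27.9% of all tested genes were called lower and 28.8% higher. Of 12 granulosa cell markers, all were detected, with a summed level of 13320 to 14120 FPKM at 0 h and 4936 to 5185 at 6 h. In this list 11 were called lower at 6 h than at 0 h. At 1 h against 0 h, 3 were called higher and 1 lower, beside 9.68% and 5.98% of all tested genes. The sum at 1 h was 13230 to 19050 FPKM. Whether the fall of these markers at 6 h is one of granulosa cells or of RNA per cell was not tested. Of 17 oocyte markers 16 were tested, and 15 of these were called higher at 6 h than at 0 h (9 to 15 when a library was left out, the lowest without 6 h replicate 3), with a median log2 change of 0.81. Their sum was 105, 67.7 and 70.9 FPKM at 0 h, 103, 83.9 and 106 at 1 h and 126, 146 and 190 at 6 h. The oocyte sum was thus highest in replicate 1 at 0 h, as were 45 members, and in replicate 3 at 6 h, as were 39 members. The order at 0 h was not particular to oocyte markers. Sums of granulosa, theca and stroma, endothelium and surface epithelium markers were also highest in replicate 1 at 0 h, while leukocyte markers were not. At 6 h none of these other sums was highest in replicate 3. Oocytes also carry mRNA of cell cycle genes, and the part of oocyte RNA in the members' values was not tested. In bulk RNA, fewer dividing cells and less RNA of these genes per cell cannot be told apart.

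Further marker lists were read in the same way. At 6 h against 0 h, 4 of 11 theca and stroma markers were lower and none higher, 3 of 7 tested endothelial markers were higher and none lower, and 2 of 6 tested surface epithelium markers were lower and none higher. Of 10 leukocyte markers, 4 stayed below 1 FPKM in all libraries, and 1 of 5 tested was lower at 6 h. Lower shares were thus 36.4% for theca and stroma, 33.3% for surface epithelium and 20.0% for leukocytes, beside 27.9% of all tested genes. The higher share of endothelium was 42.9%, beside 28.8% of all tested genes. None of these shares was tested against that of all genes. For theca and stroma the summed level was 219 to 339 FPKM at 0 h and 132 to 163 at 6 h, without overlap. Endothelium stood at 25.4 to 33.7 FPKM at 0 h and 29.2 to 43.1 at 6 h, and leukocytes at 17.8 to 28.3 and 13.9 to 19.4. Surface epithelium stood at 24.07 to 28.55 FPKM at 0 h and 18.9 to 24.9 at 6 h. The oocyte marker Figla was listed at 0 in some libraries and was not tested, no marker was at 0 in all, and the part of these cells in the members' values was not tested.

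Some members had single rows whose levels differed between times. The tables hold 117 rows for the 54 members, 34 of which have more than 1 row, and give no transcript names. For Cdk2, the minor row stood at 5.14, 5.32 and 5.48 FPKM at 0 h, 8.48, 7.32 and 5.99 at 1 h and 2.30, 2.57 and 1.33 at 6 h, with no overlap between any of the times. It made up 25.4% of the gene at 0 h, 34.8% at 1 h and 9.8% at 6 h. The major row went from 12.3, 11.8 and 16.9 FPKM at 1 h to 18.2, 18.6 and 20.2 at 6 h, and the gene total had means of 21.0, 20.9 and 21.1 FPKM at the 3 times. Taken from the most abundant row alone, Cdk2 was called higher at 6 h than at 1 h (log2 0.47, adjusted p = 0.0133), while the gene total was not (0.01, interval −0.17 to 0.19).

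Rows of Cdk1 and Kif20a varied more between libraries of a time. The third row of Cdk1 gave 8.98, 3.48 and 12.6 FPKM at 0 h, 9.90, 0.515 and 4.83 at 1 h and 2.84, 0.00467 and 0.00057 at 6 h, with overlap between 0 h and 1 h and none between 0 h and 6 h. The second row of Kif20a, a kinesin of cytokinesis, made up 14.0% of the gene at 0 h, 29.5% at 1 h and 31.9% at 6 h, with values overlapping at all times. These 3 genes were chosen after their row values were seen. How fragments were divided among rows is not given in the sources used here, and the rows of Cdk1 and Kif20a described here were not tested one by one.

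**Figure D5:**
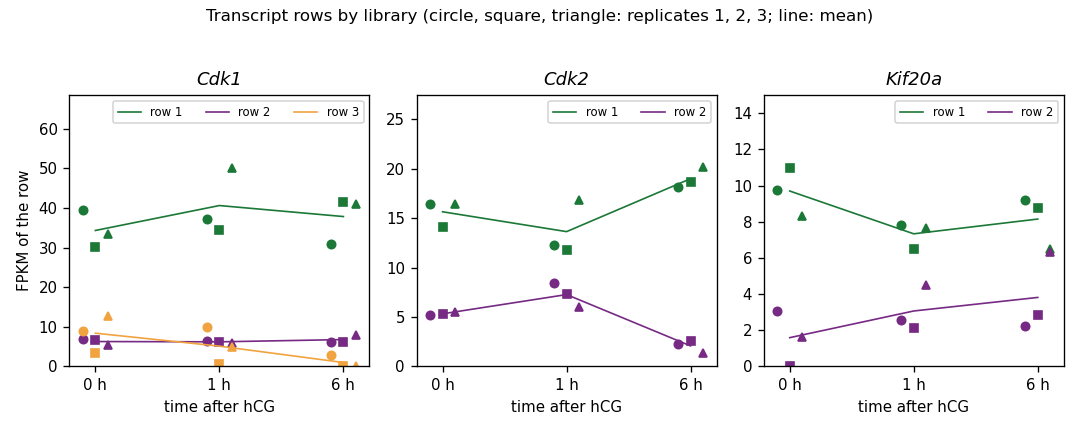
FPKM (vertical axis, from 0) of the separate table rows of Cdk1, Cdk2 and Kif20a in each library at 0, 1 and 6 h, with replicates 1, 2 and 3 as circle, square and triangle and lines joining the means. The second Cdk2 row lies at 1.33 to 2.57 FPKM at 6 h, below its 0 h and 1 h values, while the first lies at 18.2 to 20.2.

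Other genes of the same pathways were taken from lists by function. Of 50 further replication genes, 25 were lower at 6 h than at 0 h (27.9% of all tested genes were) and 2 higher (28.8% of all tested genes were), with a median log2 change of −0.37. When a library was left out, 23 to 32 were lower, beside 3532 to 4148 of all tested genes. Dut, which removes dUTP, went from 34.7, 40.4 and 35.4 FPKM to 13.6, 20.4 and 20.4, or 49.3% of its 0 h mean (SE 0.15 on the log2 scale, adjusted p = 0.000357). Pola1, the catalytic subunit of DNA polymerase alpha, and Chaf1b, a chromatin assembly factor, had log2 changes of −0.95 (adjusted p = 5.3e-05) and −0.93 (0.00164). The 2 that rose, named after their values were seen, were Gmnn, which encodes the licensing inhibitor geminin (log2 0.50, adjusted p = 0.00957), and Rfc5, a clamp loader subunit (0.29, 0.0189). The Rfc5 call was lost at an adjusted p of 0.0662 without 0 h replicate 2, 0.0707 without 0 h replicate 3 and 0.061 without 6 h replicate 3, with the sums made equal (0.0728) and with quantile normalization (0.0633).

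Of 60 further mitotic genes, 26 were lower at 6 h than at 0 h (43.3%, against 27.9% of all tested genes) and 3 higher (5.0%, against 28.8%), with a median log2 change of −0.26. With the sums made equal, 39 were lower, and when a library was left out, 23 to 30 were. Pbk, a mitotic kinase, went from 29.0, 26.1 and 22.6 FPKM to 10.4, 10.6 and 9.63 (log2 −1.26, adjusted p = 7.9e-05), and Cdkn3, a phosphatase that acts on CDKs, had a log2 change of −1.14 (adjusted p = 0.000486). In the opposite direction, Cenpm, a centromere protein, went from 17.9, 13.3 and 14.7 FPKM at 0 h to 22.9, 19.1 and 28.1 at 1 h and 39.5, 48.5 and 45.0 at 6 h (log2 1.48, adjusted p = 2.12e-05 at 6 h). The other 2 that rose, named after their values were seen, were Cks2, a CDK-binding protein (log2 1.07, adjusted p = 1.88e-05), and Nek2, a centrosomal kinase (0.73, 0.000232).

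Some regulators of the G1 phase had larger changes than any member. Cdkn1a, the CDK inhibitor p21, stood at 4.63, 7.06 and 5.11 FPKM at 0 h, 9.87, 15.3 and 10.6 at 1 h and 31.8, 36.3 and 31.8 at 6 h, rising at each time (log2 2.39 at 6 h against 0 h, SE 0.17, adjusted p = 2.55e-06). Ccnd2, the cyclin D2 through which follicle-stimulating hormone drives granulosa cell division, fell from 98.1, 116 and 105 to 32.3, 26.5 and 45.1 FPKM (log2 −1.62, SE 0.18, adjusted p = 4.31e-05). Cdkn2d, an inhibitor of CDK4 and CDK6, was called lower at 1 h against 0 h (log2 −0.43, adjusted p = 0.0313) and higher at 6 h against 0 h (log2 1.39, adjusted p = 5.88e-06). The call at 1 h was lost in 6 of 17 alternatives, among them leaving out 0 h replicate 1 (adjusted p = 0.0985), 0 h replicate 2 (0.054), 0 h replicate 3 (0.0806) or 1 h replicate 3 (0.092). Cdkn1b, the inhibitor p27, fell from 42.4, 41.5 and 37.4 to 31.7, 28.8 and 26.1 FPKM (log2 −0.47, adjusted p = 0.00124). Cdkn1c, the inhibitor p57, was not called (log2 0.38, interval −0.11 to 0.87). Of 11 tested genes of this list 4 were higher (36.4%) and 3 lower (27.3%) at 6 h than at 0 h, shares near those of all tested genes (28.8% and 27.9%).

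Of 15 genes of the RB, E2F and MuvB complexes, 6 were higher and 3 lower at 6 h than at 0 h, where 28.8% of all tested genes were higher and 27.9% lower, and 3 were higher with the sums made equal. E2f4, the E2F of the repressive complex of resting cells, rose from 17.1, 18.2 and 19.1 to 29.9, 33.8 and 34.1 FPKM (log2 0.81, adjusted p = 1.3e-05), and Lin37, a MuvB subunit, also rose (0.77, adjusted p = 0.000683). E2f3, an activating E2F, was called higher (log2 1.15, adjusted p = 0.0461) at widely spread values of 16.8, 46.1 and 64.5 FPKM at 0 h and 60.3, 87.6 and 109 at 6 h. Its call was lost in 12 of 17 alternatives, among them at an adjusted p of 0.133 without 0 h replicate 1, 0.0553 without 0 h replicate 2, 0.0565 without 1 h replicate 1, 0.0545 without 1 h replicate 2, 0.107 without 6 h replicate 2 and 0.138 without 6 h replicate 3. Higher calls of this list numbered 3 without 0 h replicate 2 or 6 h replicate 2, and 4 without 0 h replicate 1 or 6 h replicate 1.

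Of 14 core subunits of the anaphase-promoting complex and its activator CDH1, 4 were higher (28.6%) and 6 lower (42.9%) at 6 h than at 0 h, where 28.8% of all tested genes were called higher and 27.9% lower. Anapc5 went from 97.8, 97.8 and 98.3 FPKM to 51.2, 47.2 and 54.6 (log2 −0.93, SE 0.07, adjusted p = 2.13e-06). Anapc7 (log2 −0.80, adjusted p = 7.15e-05) and Anapc13 (−0.63, adjusted p = 3.48e-05) fell as well. Higher calls numbered 1 with the sums made equal and 2 with quantile normalization or without a trend in the prior variance. They also numbered 1 without 0 h replicate 2 and 2 without 6 h replicate 2 or 6 h replicate 3.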

How the data were processed

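The authors deposited FPKM values for 54759 rows per library, each paired with a gene identifier and symbol. Per the submitters' processing notes, HISAT2 2.0.5 and the build mm10 were used. Not given in the sources used here are the program behind the FPKM values, the annotation, the filters and the use of strand. In each library 9364 to 9682 rows lay above 0 and below 0.001 FPKM, so that values are not multiples of single reads. Sequencing depth is therefore unknown, and no interval for counting error can be given. Overlapping and antisense genes, near-identical copies and pseudogenes could share reads with a member.

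Rows were summed per gene identifier, with Python 3.11.15. Values were tested as log2(FPKM + 1), a scale that understates changes of low genes, with limma 3.58.1 in R 4.3.3 and a prior variance that follows the mean level. A gene entered the fit if 3 or more libraries had at least 1 FPKM, which left 14535 genes. A single model of the 3 times over 9 libraries had 6 residual degrees of freedom, without covariates. Calls were made at a Benjamini-Hochberg adjusted p below 0.05, the intervals are 95% intervals from the same fit, and the fit was tested on simulated data. Groups came from the sample titles. Coordinates are those of GENCODE M21 (mm10), and promoter windows those of RefSeq.

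The members and lists were chosen with earlier results of these data known. In each role group, every library's value is given for the 2 called members with the largest change at 6 h against 0 h, for the 1 with the highest mean FPKM, for members called at 1 h and for members not called where most of their group was. Of the other lists, the 3 called genes with the largest change and 4 regulators of G1 are named. Genes outside this rule, such as Gins2, Ccnb1, Mcm2, Mcm4, Gins1, Cdc25c and Aurkb, were added after their values were seen. The alternatives were another pseudocount (0.1), no filter, 2 scalings, the most abundant row alone, only the times compared, no trend in the prior variance, a replicate block and leaving out each library.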

Additional observations from a re-analysis of the deposited data

How the results depend on the processing

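Of the 23 member calls at 6 h against 0 h, 13 were kept under all 17 alternatives and 10 were lost under at least 1. Of the 18 at 6 h against 1 h, 17 were kept, and Mcm4 was lost. No called change of a member reversed. Where a library was left out, members called lower at 6 h against 0 h numbered 12 to 22 (5 to 9 replication genes, 6 to 13 mitotic genes and 1 to 3 transcription factors) and those called higher 1 to 2 (0 to 1 mitotic). At 6 h against 1 h, 14 to 19 were lower (9 to 13 mitotic, 0 to 1 transcription factors), and at 1 h against 0 h, 0 to 2 were higher (0 to 1 replication, 0 to 1 mitotic). Over all tested genes, 3532 to 4148 were called lower at 6 h against 0 h when a library was left out.

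With the sums of FPKM made equal, 8 members were lower at 1 h (2 replication genes, 5 mitotic genes and 1 transcription factor) and 0 higher, and at 6 h against 1 h, 5 were higher (3 mitotic). With quantile normalization, 1 was lower at 1 h (mitotic), 0 were higher, and at 6 h against 0 h, 1 was higher and 0 mitotic genes were. With no filter on low values, 0 were higher at 1 h, and at 6 h against 0 h, 1 was higher and 0 mitotic genes were. With only the times compared or no trend in the prior variance, 0 were higher at 1 h. From the most abundant row alone, 5 were higher at 6 h against 1 h (4 replication genes). For transcription factors at 6 h against 0 h, 1 or 3 were lower under some of these settings. The causes were not tested.

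The labels tie no replicate number to a shared animal or day. Same-numbered libraries gave correlations of −0.078 to 0.147 in 9 pairs, 4 of them above 0.1. In 12 of 18 comparisons a library correlated best with its own number among the 3 libraries of another time. A batch shared by replicate number was not tested. With the replicate block, 19 members were lower at 6 h than at 0 h, 10 of them mitotic, and Ndc80 (adjusted p = 0.0725) and Kif23 (0.0672) lost their calls.

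Depth is unknown, so precision rests on 3 libraries a time. Differences near 0, as for Cdk2, Ccnb1 and Tpx2, are bounded by their intervals and are not shown to be absent.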
